A study of Glycine max with 16 samples.

Results

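WRKY and NAC proteins are 2 large families of plant transcription factors. A WRKY protein binds the W-box in promoters through its WRKY domain, and members are known from Arabidopsis for roles in defence, salicylic acid signalling and leaf senescence. A NAC protein binds DNA through a conserved N-terminal domain, and members are known for roles in leaf senescence, drought and salt responses and the maturation of seeds and fruits. The numbers in soybean gene names do not pair with the numbers of Arabidopsis genes, so the role of an Arabidopsis gene of like number is not assumed here.

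The members were all genes whose symbol in the array annotation is WRKY or NAC followed by a number and that have a probe set paired with no other gene. There were 67 such genes, 52 WRKY and 15 NAC, out of 6031 genes with a single-gene probe set, and no filter on signal was applied. They were measured by 133 single-gene probe sets, and 35 of the genes had more than 1. Where a gene had several, the one of highest mean signal across all 16 arrays stands for it. A further 11 probe sets name a member or a gene of either family together with another gene and were left out, and with them NAC022, NAC15, NAC5, WRKY13, WRKY49 and WRKY61.

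The arrays measured RNA of whole seeds, seed coat and embryo together, of the soybean cultivar MG/BR 46 (Conquista), which the study used as a genotype susceptible to chlorophyll retention. All plants grew at an average of 24.7 °C with free water until stage R5.5. Stressed plants then stood in a greenhouse whose days averaged 39.5 °C and received water when they wilted, and non-stressed plants stayed where they were. Seeds were taken at R6, R7 and R8, stages of maturation set from the plants and pods, and were then selected by colour, and each replicate joined the seeds of a pair of pots. The groups were stressed R6, R7 and R8 seeds with 3 arrays each, non-stressed R6 seeds with 3 arrays, and non-stressed R7 and R8 seeds with 2 arrays each.

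Values are log2 signals. The upper level of the background was 1.02, the highest 95th percentile reached on any array by probe sets for other organisms. In the WRKY family 20 of 52 members exceeded a group mean of 3, the limit the study used, a further 15 lay between background and 3, and 17 stayed at or below background in every group. In the NAC family 11 of 15 exceeded 3, NAC1, NAC6 and NAC23 lay between, and NAC34 stayed at background. The number of WRKY members with a group mean above 3 was 16, 13 and 10 in stressed R6, R7 and R8 seeds, against 16, 14 and 11 in non-stressed seeds of the same stages. For NAC members it was 9, 9 and 9 in stressed seeds, against 8, 10 and 9 in non-stressed seeds. Signals of different probe sets do not rank their genes by transcript number.

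A member is called higher or lower here when limma gave an adjusted p of at most 0.05 over all 37593 soybean probe sets and the groups differed by at least 2-fold. At R6 the NAC family stood mostly higher in stressed seeds, with 5 of 15 members called higher and 1 lower. The difference was positive for 12 of the 15, with a median of 0.70 on the log2 scale. It was positive for 2691 of all 6031 genes, with a median of -0.055. NAC4 and NAC27, measured from 1 source sequence, both count among the 12. So does NAC34, which was within background in both R6 groups. Of all genes measured in the same way, 5.87% were called higher and 7% lower. The WRKY family had 3 of 52 called higher and 3 lower, with a median of -0.02. At an adjusted p of at most 0.05 with no fold minimum, 10 NAC members stood higher and 1 lower, where 17.4% of all genes stood higher and 26% lower. MYB factors counted 7 higher and 4 lower of 66, and bZIP factors 6 higher and 5 lower of 58. In whole seeds, fewer cells of a type and less RNA per cell cannot be told apart.

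NAC12, NAC26, NAC51, NAC14 and NAC1 were higher in stressed R6 seeds. NAC12 measured 6.0, 5.86 and 3.10 in stressed R6 seeds, against 1.80, 0.89 and 0.45 in non-stressed R6 seeds. The groups did not overlap, but the third stressed array lay far below the other two, and 2 of the 3 non-stressed arrays were within background. The difference was 3.94 ± 0.57 (SE; limma, adjusted p = 0.000141), and it was 4.88 without the third stressed array. That array also had the lowest mean correlation with the arrays of its own group, 0.9797, where the other 15 arrays had at least 0.9876.

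NAC26 measured 6.43, 6.36 and 4.93 in stressed R6 seeds, against 4.45, 3.58 and 3.00 in non-stressed R6 seeds. The arrays fell in the same order as for NAC12 in both groups, and the difference was 2.23 ± 0.38 (SE; limma, adjusted p = 0.000515). NAC1 measured 3.13, 3.05 and 2.51 in stressed R6 seeds, against 1.68, 1.09 and 0.96 in non-stressed R6 seeds. Its difference was 1.65 ± 0.24 (SE; limma, adjusted p = 0.00013). That probe set is of the type that can bind transcripts of other genes, and the other single-gene probe set of NAC1 was within background in both groups. NAC1 and NAC26 have similar sequences on the array, since 2 of the excluded probe sets name both, so signal shared between them cannot be told apart.

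NAC51 was within background in non-stressed R6 seeds, at 0.57, 0.26 and 0.41, while stressed R6 seeds measured 1.99, 1.78 and 1.75. Its level in stressed seeds was at least 1.77-fold above the background level (limma, adjusted p = 1.55e-05). NAC14, with the synonym GmNAC179, measured 7.79, 7.75 and 8.26 in stressed R6 seeds, against 6.43, 6.26 and 6.03 in non-stressed R6 seeds. The difference was 1.69 ± 0.17 (SE; limma, adjusted p = 4.27e-06). Its other 2 probe sets were also higher under stress, by 2.35 and 1.68. NAC2, the NAC member with the highest mean signal, measured 9.61, 9.72 and 9.83 in stressed R6 seeds, against 8.87, 8.92 and 8.91 in non-stressed R6 seeds. Its difference of 0.82 stayed under 2-fold.

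**Figure D1:**
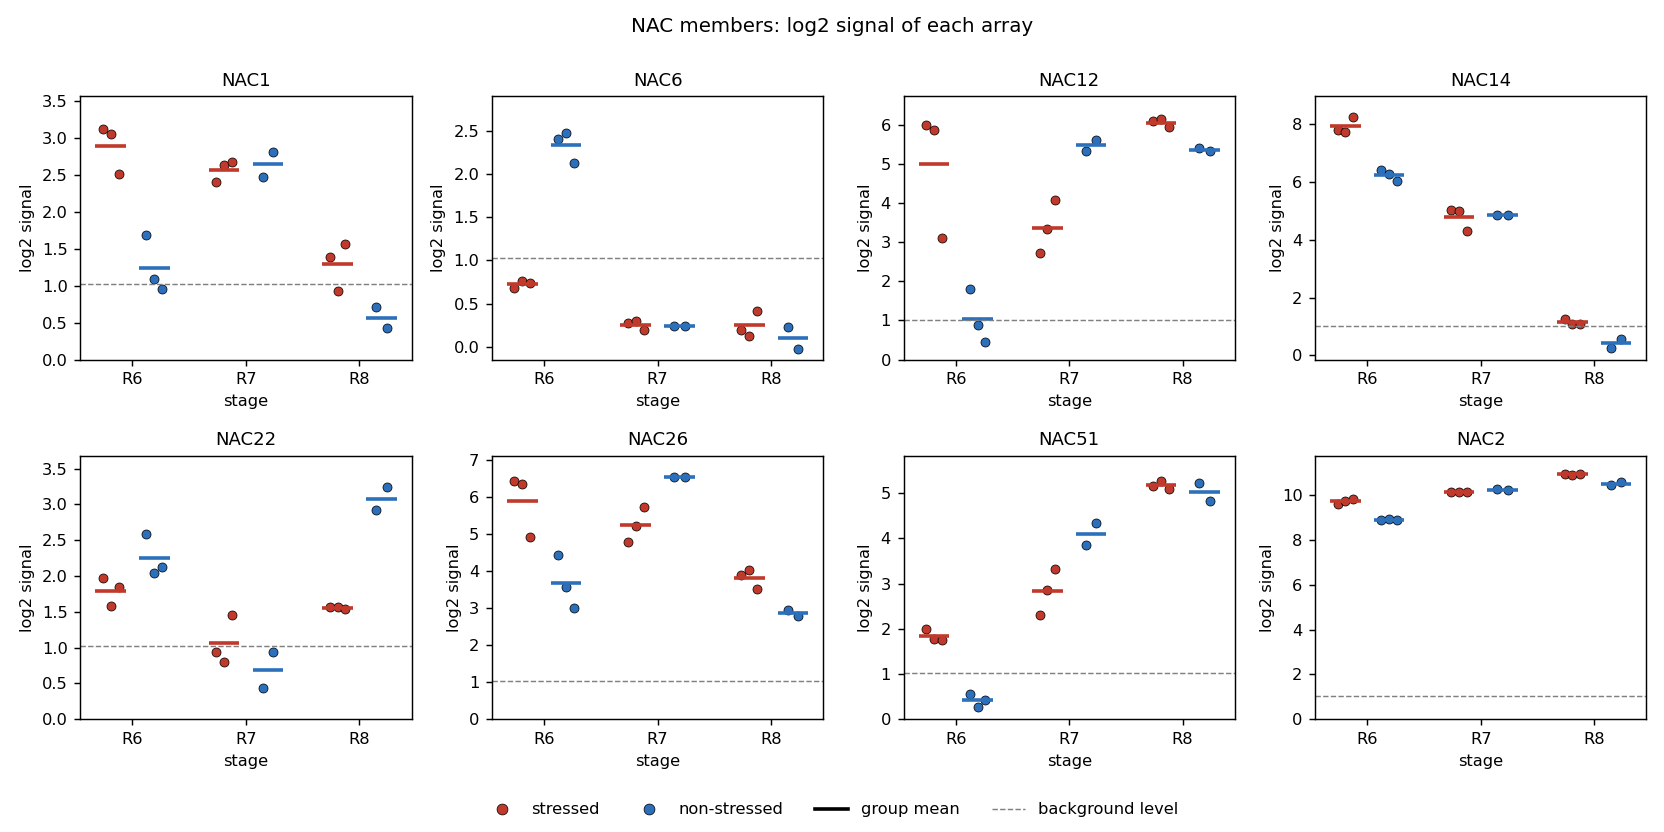
Log2 signal of each array (points) and group mean (bars) for the 7 NAC members called between environments at any stage and for NAC2, by stage on the x axis, with stressed seeds to the left of non-stressed seeds. The dashed line is the background level of 1.02. NAC12, NAC26 and NAC51 stand higher in stressed seeds at R6 and lower in stressed seeds at R7.

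Among WRKY members, WRKY4, WRKY53 and WRKY54 were higher in stressed R6 seeds. WRKY4, the WRKY member with the highest mean signal, measured 6.64, 6.43 and 6.39 in stressed R6 seeds, against 5.5, 5.22 and 5.45 in non-stressed R6 seeds. The groups were well apart, with a difference of 1.09 ± 0.11 (SE; limma, adjusted p = 4.26e-06). Of its other 4 probe sets, 1 was called with 1.01, 2 stayed under 2-fold with 0.54 and 0.63, and 1 was within background in both groups. WRKY53 measured 2.50, 2.52 and 3.00 in stressed R6 seeds, against 1.39, 1.36 and 1.49 in non-stressed R6 seeds. Its difference was 1.26 ± 0.16 (SE; limma, adjusted p = 4.66e-05). WRKY54 reached 1.39, 1.55 and 1.81 in stressed R6 seeds and was within background, at 0.63, 0.58 and 0.42, in non-stressed R6 seeds. It was at least 1.48-fold above background, and its fitted difference of 1.04 fell to 0.93 without the third stressed array and to 0.98 without the third non-stressed array, below the fold minimum.

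WRKY12, WRKY43, WRKY46 and NAC6 were lower in stressed R6 seeds and had their highest level in non-stressed R6 seeds. WRKY12 measured 0.92, 0.52 and 0.98 in stressed R6 seeds, against 3.19, 3.00 and 2.93 in non-stressed R6 seeds. It was at least 4.05-fold lower under stress (limma, adjusted p = 1.21e-06). WRKY46 measured 0.41, 0.75 and 1.49 in stressed R6 seeds, against 2.95, 2.72 and 2.68 in non-stressed R6 seeds, at least 3.40-fold lower (limma, adjusted p = 2.15e-05). WRKY43 measured 0.34, 0.35 and 0.23 in stressed R6 seeds, against 1.95, 1.62 and 1.65 in non-stressed R6 seeds, at least 1.65-fold lower (limma, adjusted p = 2.16e-06). NAC6, with the synonym GmNAC6, a factor known in soybean from a cell death response, measured 0.68, 0.77 and 0.73 in stressed R6 seeds, against 2.40, 2.47 and 2.12 in non-stressed R6 seeds. It was at least 2.47-fold lower (limma, adjusted p = 1.85e-06). The stressed R6 mean of each of these 4 genes was within background, and the groups did not overlap.

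**Figure D2:**
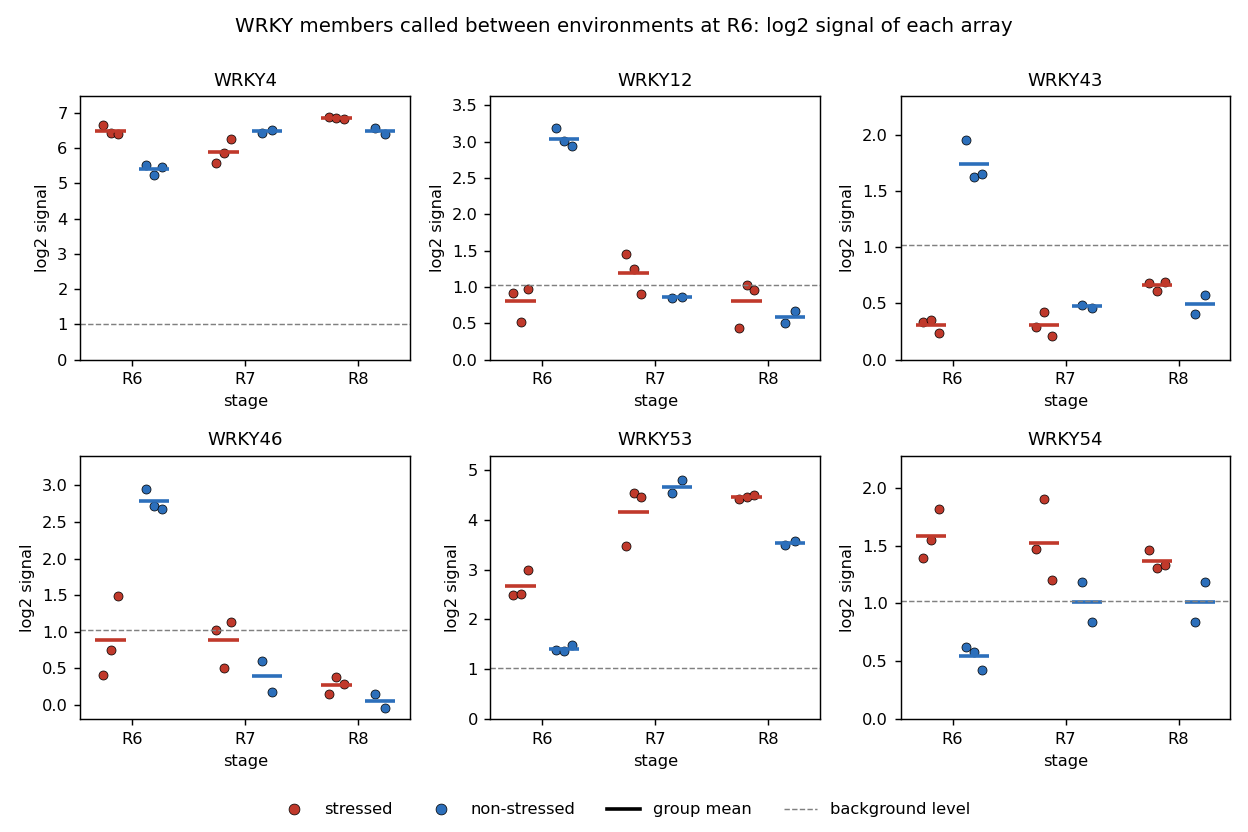
Log2 signal of each array (points) and group mean (bars) for the 6 WRKY members called between environments at R6, by stage, with stressed seeds to the left of non-stressed seeds and the background level of 1.02 dashed. WRKY12, WRKY43 and WRKY46 reach means of 3.04, 1.74 and 2.79 in non-stressed R6 seeds, and all their later group means lie at or below 1.20.

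Some markers of the seed coat, but not all, were lower in stressed R6 seeds, as these 4 genes were. Of 5 seed coat markers measured, 3 were lower in stressed R6 seeds and 1, the peroxidase gene Ep, was higher, at 4.31 in stressed R6 seeds and 2.14 in non-stressed R6 seeds. HPS, for a hydrophobic protein of the seed surface, averaged 5.72 in stressed R6 seeds and 9.36 in non-stressed R6 seeds, and SCB1, for a seed coat protein, averaged 1.84 in stressed R6 seeds and 5.72 in non-stressed R6 seeds. LAR1, for an enzyme of proanthocyanidin synthesis, averaged 0.25 in stressed R6 seeds, within background, and 3.06 in non-stressed R6 seeds. ANR1, of the same pathway, was within background in both. The summed linear signal of the 5 markers was 57.9 to 102 in stressed R6 seeds, against 608 to 916 in non-stressed R6 seeds. HPS, with the highest mean of the 5 in both groups, weighs most in this sum. None of 11 genes for embryo reserves was called at R6, with sums of 38100 to 40100 in stressed seeds, against 37600 to 38700 in non-stressed seeds. The part of the seed coat markers in the lower WRKY and NAC6 levels was not tested.

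At R7 the called members stood mostly lower in stressed seeds. The study described its R7 samples as mixed seeds with varying chlorophyll breakdown, taken to be at slightly different points of maturation. For this reason, and from a principal component analysis, it used R6 and R8 alone for its further array analysis. The part of such mixing in the R7 results was not tested. In the WRKY family 5 of 52 were called lower and 1 higher, and in the NAC family 3 of 15 were called lower and 0 higher. Of all genes, 5.29% were called lower and 4.13% higher. The medians, -0.04 for WRKY and -0.07 for NAC, lay near 0, since the 12 NAC members not called ranged from -0.15 to 0.50. MYB factors counted 5 lower and 2 higher, and bZIP factors 2 lower and 0 higher.

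NAC12, NAC26 and NAC51, called higher in stressed seeds at R6, were called lower in stressed seeds at R7. NAC12 measured 2.72, 3.33 and 4.07 in stressed R7 seeds, against 5.33 and 5.61 in non-stressed R7 seeds, a difference of -2.10 ± 0.61 (SE; limma, adjusted p = 0.0142). NAC26 measured 4.78, 5.23 and 5.74 in stressed R7 seeds, against 6.54 and 6.54 in non-stressed R7 seeds, a difference of -1.29 ± 0.41 (SE; limma, adjusted p = 0.0234). The stressed arrays again fell in one order for both genes and stayed below both non-stressed arrays. The NAC12 call was lost without either non-stressed array or without the first stressed array, with limma adjusted p of 0.0586, 0.0953 and 0.0624. The NAC26 call was lost without any one of the 2 non-stressed arrays or the first or second stressed array, with adjusted p of 0.104, 0.102, 0.0959 and 0.0569. With robust variance, limma gave adjusted p of 0.0602 for NAC12 and 0.0571 for NAC26. NAC51 measured 2.29, 2.85 and 3.33 in stressed R7 seeds, against 3.86 and 4.34 in non-stressed R7 seeds, and its difference of -1.28 ± 0.25 (SE; limma, adjusted p = 0.000978) was called under each alternative run.

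WRKY33, WRKY23, WRKY36, WRKY34 and WRKY5 were lower in stressed R7 seeds. WRKY33 measured 4.62, 4.54 and 4.75 in stressed R7 seeds, against 6.03 and 6.14 in non-stressed R7 seeds, a difference of -1.45 ± 0.16 (SE; limma, adjusted p = 9.75e-06). WRKY23 measured 3.82, 4.01 and 4.08 in stressed R7 seeds, against 5.39 and 5.39 in non-stressed R7 seeds, a difference of -1.42 ± 0.22 (SE; limma, adjusted p = 0.000143). Other probe sets of both genes were lower too, with differences of -1.22 for WRKY33 and of -1.56 and -1.45 for WRKY23. The remaining 2 probe sets of WRKY23 were not called, at -0.83 and 0.11. WRKY36 measured 3.18, 3.15 and 3.15 in stressed R7 seeds, against 4.31 and 4.42 in non-stressed R7 seeds, a difference of -1.20 ± 0.23 (SE; limma, adjusted p = 0.000814). In all these genes every stressed array lay below every non-stressed array.

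The calls of WRKY34 and WRKY5 each depended on 1 array. WRKY34 measured 1.42, 1.5 and 2.06 in stressed R7 seeds, against 2.99 and 2.69 in non-stressed R7 seeds, a difference of -1.18 ± 0.29 (SE). Its limma adjusted p was 0.00524, and 0.0622 without the first non-stressed array. WRKY5 was within background in stressed R7 seeds, at 0.59, 0.34 and 0.68, against 1.25 and 2.06 in non-stressed R7 seeds, at least 1.55-fold lower (limma, adjusted p = 0.00297). Without the second non-stressed array its difference was -0.72 and its adjusted p 0.0872.

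WRKY6 ran the other way. It measured 6.17, 6.38 and 6.47 in stressed R7 seeds, against 5.42 and 5.04 in non-stressed R7 seeds, a difference of 1.11 ± 0.19 (SE; limma, adjusted p = 0.000337). Without the second non-stressed array it was 0.91, under 2-fold. At R6 it had measured 3.64, 3.69 and 3.98 in stressed seeds, against 4.59, 4.87 and 4.76 in non-stressed seeds, a difference of -0.98 that also stayed under 2-fold.

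**Figure D3:**
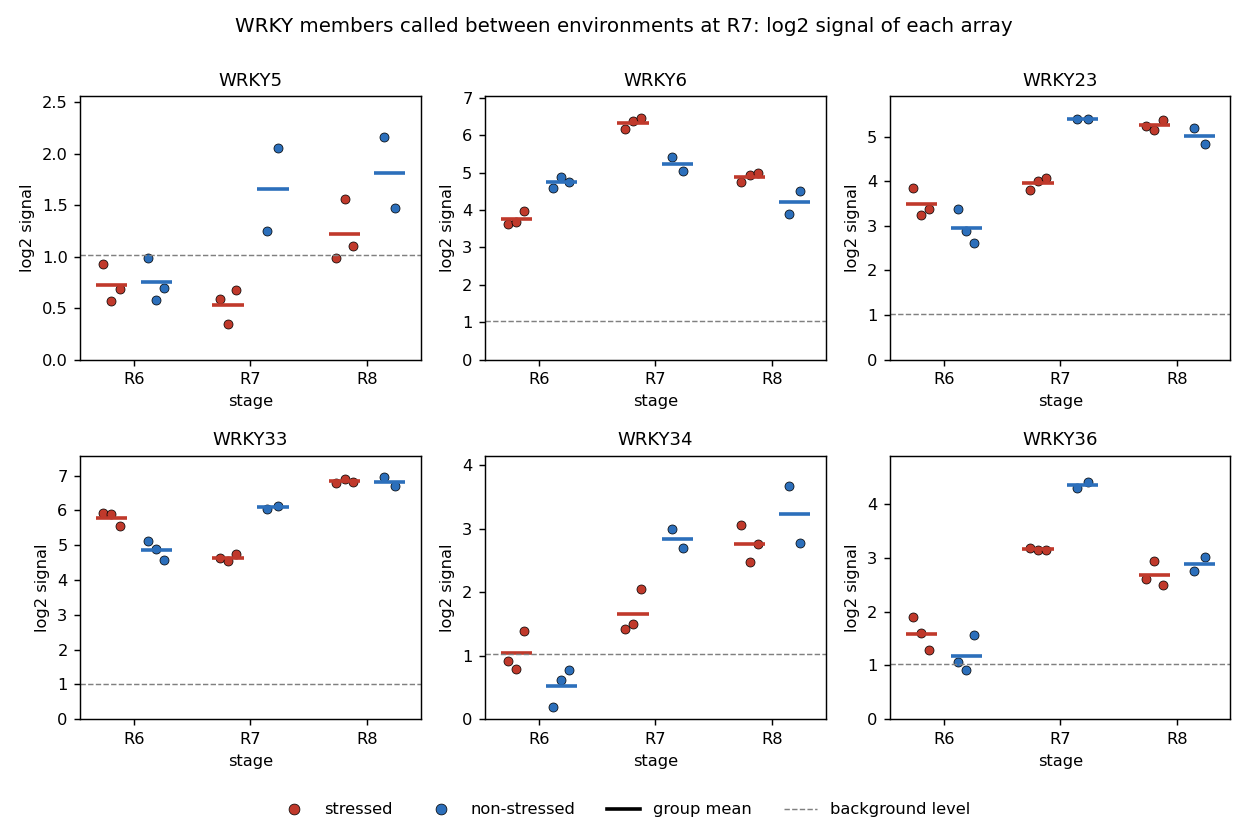
Log2 signal of each array (points) and group mean (bars) for the 6 WRKY members called between environments at R7, by stage, with stressed seeds to the left of non-stressed seeds and the background level of 1.02 dashed. WRKY23, WRKY33, WRKY34 and WRKY36 are lower in stressed seeds at R7, and none of the 6 genes is called at R6 or R8.

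Some genes gave different results with another of their probe sets. The representative of NAC19, which carries the synonym NAC20, differed by 0.35 at R6 and 0.50 at R7, neither called, while its other probe set differed by 1.84 at R6 and by -1.20 at R7, called higher and lower in stressed seeds. For NAC3, the representative differed by 0.38 at R7, and 2 of its other 4 probe sets were higher in stressed seeds by 1.40 and 2.04. Another probe set of WRKY4 was lower in stressed R7 seeds with a difference of -1.21, where the representative gave -0.58. A second probe set of NAC27 was higher at R6 by 1.10, where the representative gave 0.72, and a second probe set of WRKY24 was lower at R7 with a difference of -1.22. The other 2 probe sets of WRKY36 gave -0.73 and -0.41 at R7 and the other 3 of WRKY34 gave -0.76, -0.83 and -0.38, none of them called. The other probe sets of NAC12 at R6 and R7 and of NAC22 at R8 were within background in both groups. NAC4 and NAC27 are measured by probe sets of 1 source sequence and cannot be told apart. Over any single-gene probe set, NAC19 and NAC27 would be added to the R6 calls, and WRKY24, WRKY4, NAC19 and NAC3 to the R7 calls. WRKY24, NAC14 and NAC19 would be added for the change of the stress difference between R6 and R8. For R8 against R6, WRKY24, NAC12 and NAC3 would be added in stressed seeds, and WRKY24 and NAC3 in non-stressed seeds.

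RNA controls differed between environments at R7, and some also at R6 and R8. The actin control's 3′ signal exceeded its 5′ signal by 2.45 ± 0.18 (SD, n = 3) in stressed R7 seeds and by 3.72 ± 0.76 in non-stressed R7 seeds (SD, n = 2), on the log2 scale. The signal of 18S ribosomal RNA was 10.02 ± 0.30 (SD, n = 3) in stressed R7 seeds and 7.33 ± 1.43 in non-stressed R7 seeds (SD, n = 2). Of the 11 embryo reserve genes, 4 were lower in stressed R7 seeds, with sums of 16200 to 19600, against 30700 to 31900 in non-stressed R7 seeds. The part of these differences in the R7 results was not tested.

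At R8 few members differed. The NAC family had 0 of 15 called higher and 1 lower, and the WRKY family had 0 of 52 called in either direction by limma. Of all genes, 5.41% were called higher and 1.77% lower. MYB factors counted 5 higher and 0 lower, and bZIP factors 0 higher and 1 lower. NAC22 measured 1.57, 1.57 and 1.54 in stressed R8 seeds, against 2.92 and 3.24 in non-stressed R8 seeds, and its difference of -1.52 ± 0.21 (SE; limma, adjusted p = 0.00018) was far larger than the spread of the arrays. Of the 52 WRKY members, 14 had an unadjusted p under 0.05, where 2348 of all 6031 genes did. At an adjusted p of at most 0.05 with no fold minimum, 3 WRKY members were higher and 3 lower. For NAC members that count was 5 higher and 1 lower, and of all genes 13.8% were higher and 12.2% lower by this rule. The fitted difference was above 0 for 13 of 15 NAC members, with a median of 0.43. Of all 6031 genes, 2898 were above 0, with a median of -0.014. NAC4 and NAC27, measured from 1 source sequence, both count among the 13. So do NAC6 and NAC34, which were within background in both R8 groups. Without the second non-stressed R8 array, WRKY6 and NAC018 also passed as higher.

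The embryo reserve genes differed as well at R8. Of 11, 7 were higher in stressed R8 seeds, with sums of 26100 to 26700, against 11000 to 14100 in non-stressed R8 seeds. The part of this difference in the R8 values of the NAC family was not tested.

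The change of the stress difference between R6 and R7 was tested as an interaction after the data were seen. It was called positive for 5 of 52 WRKY members and 1 of 15 NAC members, and called negative for 8 WRKY and 5 NAC members. Of all genes, 16.1% were called positive and 12.2% negative. The NAC members called negative were NAC12, NAC26, NAC51, NAC14 and NAC1, the 5 that were higher in stressed seeds at R6, which shares its arrays with this test.

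The change of the stress difference between R6 and R8 was tested as an interaction. It was called positive for 5 of 52 WRKY members and 2 of 15 NAC members, and called negative for 0 WRKY and 3 NAC members by limma. At an unadjusted p under 0.05, 20 WRKY and 9 NAC members passed, where 2743 of all 6031 genes did. Of all genes, 10.7% were called positive and 5.79% negative. Among those called positive, WRKY12, WRKY46, WRKY43 and NAC6 were lower in stressed seeds at R6 and within background in both R8 groups, so only the non-stressed R6 level of each was measured above background. With the group means within background set to the background level, a setting chosen after the data were seen, their interactions were 2.02 for WRKY12, 1.77 for WRKY46, 1.31 for NAC6 and 0.72, under 2-fold, for WRKY43. WRKY6 gave 1.66, with a stress difference of 0.69 at R8 against -0.98 at R6.

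WRKY48 and NAC018 passed by little. WRKY48 measured 2.71, 2.55 and 2.38 in stressed R8 seeds, against 2.24 and 2.38 in non-stressed R8 seeds. At R6 it had measured 3.39, 3.59 and 3.64 in stressed seeds, against 4.37, 4.22 and 4.43 in non-stressed seeds, which made an interaction of 1.03 ± 0.22 (SE; limma). It stayed under 2-fold without the third non-stressed R6 array (0.99), the first non-stressed R8 array (0.97), the first stressed R6 array (0.96) or the first stressed R8 array (0.95). NAC018 measured 5.40, 5.41 and 5.44 in stressed R8 seeds, against 4.32 and 4.93 in non-stressed R8 seeds, and at R6 5.18, 5.03 and 4.72 in stressed seeds, against 5.68, 5.11 and 4.82 in non-stressed seeds. Its interaction of 1.02 ± 0.31 (SE; limma, adjusted p = 0.03) was lost without the first non-stressed R6 array (0.78), the first non-stressed R8 array (0.71), the third stressed R6 array (0.89) or any one stressed R8 array (1.01 to 1.03, adjusted p of 0.0585 to 0.063). With centred medians the values were 0.99 for WRKY48 and 0.98 for NAC018, and with array weights 0.86 for NAC018, all under 2-fold.

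The interactions called negative were those of NAC12, NAC51 and NAC22. NAC12 measured 6.09, 6.14 and 5.94 in stressed R8 seeds, against 5.41 and 5.32 in non-stressed R8 seeds, a difference of 0.69 that was not called, and the interaction was -3.25 ± 0.86 (SE; limma, adjusted p = 0.0146). It was -4.19 without the third stressed R6 array, and its adjusted p was 0.0572 and 0.0505 without the first or the second non-stressed R8 array and 0.0818 with robust variance. NAC51 measured 5.15, 5.27 and 5.09 in stressed R8 seeds, against 5.23 and 4.83 in non-stressed R8 seeds, groups that overlapped. Its fitted interaction was -1.29 ± 0.24 (SE), and -0.68, under 2-fold, with the non-stressed R6 mean set to the background level. NAC22 gave -1.06 ± 0.28 (SE) and fell under 2-fold without the second or the third non-stressed R6 array (-0.95 and -1.0) or the first stressed R6 array (-0.98), and to -0.90 without the second non-stressed R8 array.

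Over maturation, R8 against R6, the NAC family had 5 of 15 members called higher and 3 lower in stressed seeds, against 6 higher and 2 lower in non-stressed seeds. The WRKY family had 7 of 52 higher and 9 lower in stressed seeds, against 10 higher and 16 lower in non-stressed seeds. Of all genes, 13.3% were called higher and 26.4% lower in stressed seeds, against 16.7% and 30.6% in non-stressed seeds. In both environments 5 NAC members were higher and 1 lower, and 6 WRKY members were higher and 9 lower. Both NAC4 and NAC27, measured from 1 source sequence, are among these 5 NAC members. No member was called in opposite directions, and 2 NAC and 1 WRKY were called in stressed seeds alone, against 2 NAC and 11 WRKY in non-stressed seeds alone. The counts that combine both environments were not made over all genes.

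Markers and RNA controls also moved over maturation, the RNA controls in opposite directions. The summed linear signal of the 5 seed coat markers was 7.65 to 9.23 at R8, against 57.9 to 102 at R6, in stressed seeds, and 7.55 to 8.0 at R8, against 608 to 916 at R6, in non-stressed seeds. At R8 every one of these markers but HPS had a mean within background in both environments. The R8 sums thus rest in part on signals not above background. The sums of the 11 embryo reserve genes were 26100 to 26700 at R8, against 38100 to 40100 at R6, in stressed seeds, and 11000 to 14100 at R8, against 37600 to 38700 at R6, in non-stressed seeds. The 3′ signal of the GAPDH control exceeded the signal of its middle part, given here on the log2 scale. In stressed seeds the excess was 1.73 ± 0.06 at R8, against 0.78 ± 0.05 at R6 (SD, n = 3 each). In non-stressed seeds the excess was 1.78 ± 0.04 at R8 (SD, n = 2), against 0.48 ± 0.05 at R6 (SD, n = 3). The actin control's excess of 3′ over 5′ signal was lower at R8 than at R6 in both environments. The part of these differences in the maturation results was not tested.

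**Figure D4:**
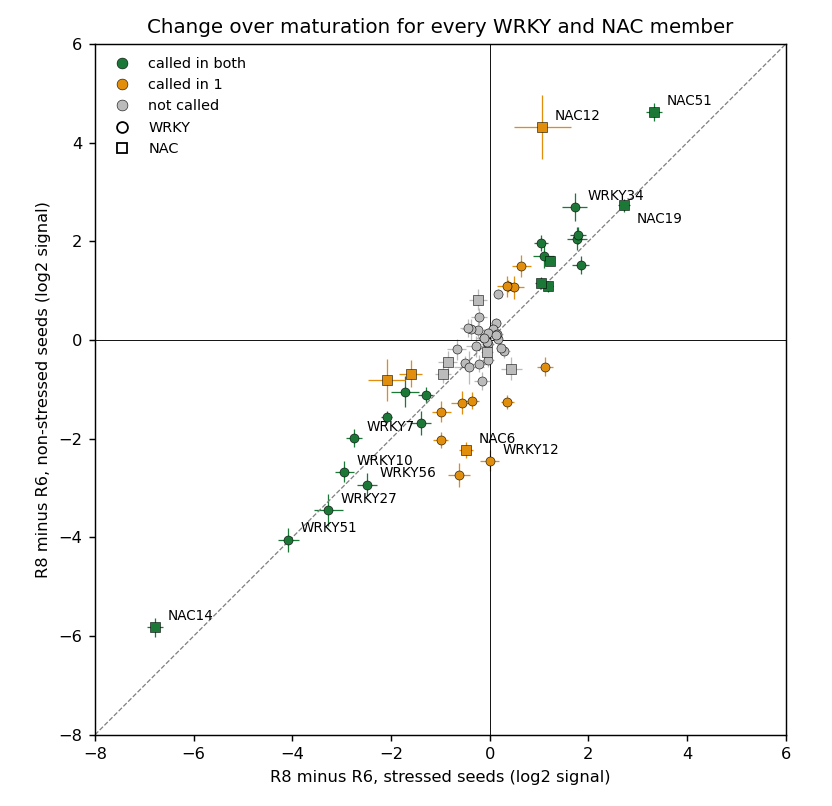
Difference R8 minus R6 in log2 signal for each of the 67 members, in stressed seeds (x axis) and non-stressed seeds (y axis), with standard errors of limma as bars and the line of equality dashed. Circles are WRKY and squares NAC members. Values are as fitted, also where a group lay within background. NAC14 lies at -6.78 in stressed and -5.82 in non-stressed seeds and NAC51 at 3.33 in stressed and 4.61 in non-stressed seeds, while NAC12, WRKY12 and NAC6 lie far from the line.

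By the probe set that stands for each gene, NAC14 had the greatest decrease of the 67 members in both environments. In stressed seeds it measured 1.27, 1.09 and 1.09 at R8, against 7.79, 7.75 and 8.26 at R6, a difference of -6.78 ± 0.17 (SE; limma). In non-stressed seeds it measured 0.26 and 0.58 at R8, within background, against 6.43, 6.26 and 6.03 at R6, at least 37.2-fold lower. At R7 it lay between, at 5.02, 5.0 and 4.31 in stressed seeds, against 4.87 and 4.85 in non-stressed seeds. NAC26 and NAC1 were lower at R8 in stressed seeds, with differences of -2.09 and -1.60. In non-stressed seeds their R8 differences of -0.80 and -0.68 were not called, and both were highest at R7, where NAC26 had risen by 2.87 and NAC1 by 1.40 over R6. NAC6 was at least 2.47-fold lower at R8 in non-stressed seeds.

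The 4 largest fitted increases of called NAC members were those of NAC51, NAC19, NAC2 and NAC4 in stressed seeds and of NAC51, NAC12, NAC19 and NAC2 in non-stressed seeds. NAC51 was higher at R8 by 3.33 ± 0.16 (SE; limma) in stressed seeds, and at least 16.1-fold higher in non-stressed seeds. NAC12 was higher at R8 by 4.32 ± 0.64 (SE; limma) in non-stressed seeds, and by 1.07 in stressed seeds, which was not called. Its level in non-stressed seeds was already up by 4.43 at R7, while in stressed seeds it differed by -1.61 between R7 and R6 and by 2.68 between R8 and R7. The lower level at R7 in stressed seeds, where the arrays of R7 and R6 overlapped, was no longer called without the first or second stressed R6 array (-1.11 and -1.18) or the first or second stressed R7 array (-1.29 and -1.59), and was -2.56 without the third stressed R6 array. NAC19 measured 9.47, 9.54 and 9.46 at R8, against 6.71, 6.63 and 6.96 at R6, in stressed seeds, and 9.24 and 9.05 at R8, against 6.15, 6.54 and 6.56 at R6, in non-stressed seeds. The increases were 2.72 in stressed seeds and 2.73 in non-stressed seeds. NAC2 was higher at R8 by 1.21 in stressed seeds and by 1.61 in non-stressed seeds, and NAC4 by 1.17 in stressed seeds and by 1.09 in non-stressed seeds.

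The 4 largest fitted decreases of called WRKY members were those of WRKY51, WRKY27, WRKY10 and WRKY7 in stressed seeds and of WRKY51, WRKY27, WRKY56 and WRKY46 in non-stressed seeds. Where a group lay within background, the place in this order rests on a value not above background. WRKY51 measured 2.99, 2.12 and 2.46 at R8, against 6.61, 6.50 and 6.70 at R6, in stressed seeds, and 1.88 and 1.70 at R8, against 6.28, 5.57 and 5.67 at R6, in non-stressed seeds. The differences were -4.08 ± 0.22 and -4.05 ± 0.24 (SE; limma). WRKY27 was within background at R8 in both environments, at least 6.54-fold lower than at R6 in stressed seeds and at least 7.08-fold lower in non-stressed seeds. WRKY10 was lower in both, with differences of -2.95 in stressed seeds and -2.67 in non-stressed seeds. WRKY56 gave -2.48 in stressed seeds and -2.93 in non-stressed seeds. WRKY7, with the synonym GmWRKY1, was at least 6.12-fold lower in stressed seeds and had a difference of -1.99 in non-stressed seeds. WRKY46 was at least 3.40-fold lower at R8 in non-stressed seeds, and in stressed seeds, within background at both stages, was not called.

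The 4 largest fitted increases of called WRKY members were those of WRKY39, WRKY53, WRKY23 and WRKY34 in stressed seeds and of WRKY34, WRKY53, WRKY23 and WRKY33 in non-stressed seeds. WRKY53 was higher at R8 by 1.78 in stressed seeds and by 2.12 in non-stressed seeds, and WRKY23 by 1.77 in stressed seeds and by 2.06 in non-stressed seeds. WRKY39 was higher by 1.84 in stressed seeds and by 1.52 in non-stressed seeds. WRKY34 was higher by 1.72 in stressed seeds and at least 4.61-fold higher in non-stressed seeds, where its R6 level was within background. WRKY33 measured 6.79, 6.89 and 6.81 at R8, against 5.91, 5.89 and 5.56 at R6, in stressed seeds, and 6.97 and 6.69 at R8, against 5.11, 4.90 and 4.58 at R6, in non-stressed seeds. Its increase was 1.05 in stressed seeds, 0.93 without the third stressed R6 array, and 1.96 in non-stressed seeds.

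The path between R6 and R8 differed by step. From R6 to R7, 3 of 15 NAC members were called higher and 3 lower in stressed seeds, against 8 and 4 in non-stressed seeds. In each environment NAC4 and NAC27, measured from 1 source sequence, both count among the higher. The median NAC difference was -0.325 in stressed seeds, against 0.019 for all genes, and 1.03 in non-stressed seeds, against -0.082 for all genes. The 18S signal averaged 7.33 in non-stressed R7 seeds, against 11.08 in non-stressed R6 seeds, and its part in these steps was not tested. Of all genes, 11.8% were called higher and 16.9% lower in stressed seeds, against 16.5% and 22.2% in non-stressed seeds. WRKY members counted 3 of 52 higher and 9 lower in stressed seeds, against 7 higher and 11 lower in non-stressed seeds. WRKY33 was lower at R7 than at R6 in stressed seeds, with a difference of -1.15, and higher by 1.22 in non-stressed seeds. The stressed step of WRKY33 was -0.81, under 2-fold, with centred medians. WRKY36 was higher in both, by 1.57 in stressed seeds and 3.19 in non-stressed seeds. From R7 to R8 the NAC family had 4 higher and 4 lower in stressed seeds, against 3 higher and 5 lower in non-stressed seeds, and the WRKY family 5 higher and 5 lower, against 1 higher and 7 lower. Of all genes, 7.16% were called higher and 18% lower in stressed seeds, against 4.66% and 16.8% in non-stressed seeds. WRKY33, WRKY23, WRKY34, NAC12 and NAC51 were among those higher at R8 than at R7 in stressed seeds, by 2.20, 1.29, 1.10, 2.68 and 2.35, and none of them was called in non-stressed seeds. The WRKY34 step was 0.98 without the first stressed R7 array and 0.96 without the first stressed R8 array.

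Levels of the same genes can be set beside the stages. NAC12 averaged 4.99, 3.37 and 6.05 in stressed R6, R7 and R8 seeds, against 1.05, 5.47 and 5.37 in non-stressed seeds. WRKY33 averaged 5.79, 4.64 and 6.83 in stressed seeds, against 4.86, 6.08 and 6.83 in non-stressed seeds. In both genes the stressed level had its lowest mean at R7, while the non-stressed level had its lowest mean at R6. NAC51 climbed through 1.84, 2.82 and 5.17 in stressed seeds, against 0.41, 4.10 and 5.03 in non-stressed seeds.

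Genes of pathways in which the families are known to act were read from lists. Of 8 genes for senescence and chlorophyll breakdown, 1 was higher in stressed R6 seeds, SARK, for a senescence-associated receptor-like kinase, by 1.79. SARK was lower in stressed R7 seeds, with a difference of -1.02, and SGR1, a stay-green gene, was higher in stressed R8 seeds by 1.06. These were the single calls of the list at each stage. Of 17 genes for defence and salicylic acid, 2 were higher and 2 lower at R6, 1 was higher at R7, and 3 were higher and 1 lower at R8. Of all genes, 5.87% were higher and 7% lower at R6, 4.13% higher and 5.29% lower at R7, and 5.41% higher and 1.77% lower at R8, and several of these lists' counts lie near such shares. OLPa, for an osmotin-like protein, was higher in stressed seeds by 4.56, 1.51 and 1.21 at R6, R7 and R8. NDR1b, for a membrane protein of disease resistance signalling, was at least 5.51-fold lower in stressed R6 seeds, where its mean was within background. Of 9 genes for abscisic acid and drought, 3 were higher at R6 and none was called at R7 or R8. DREB2A2, for a dehydration-responsive factor, was higher in stressed R6 seeds by 2.88 and ERD15, an early dehydration-responsive gene, by 2.11.

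Of the 67 members, 12 WRKY and 7 NAC were called between environments at 1 stage or more. A further 23 WRKY and 2 NAC members were called in no comparison, by environment, stage or interaction. In every group, 17 WRKY members and 1 NAC member stayed at or below background. The counts of called and never called members were not made over all genes.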

How the data were processed

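Deposited values of 16 Affymetrix Soybean Genome arrays were used. They are log2 signals that the authors made with RMA, whose version was not given in the sources used here; 3 arrays were stated per group, and 2 were analysed here for non-stressed R7 and R8. Scanner files were not used. Genes were named from the array annotation, and all 67 members were found in the gene table of Glycine_max_v4.0.

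Of 61170 probe sets, 37593 for soybean were fitted without a signal filter by limma 3.58.1 (lmFit, eBayes with trend) in R 4.3.3, on 11 arrays for R6 and R8 and on all 16 for comparisons with R7. P-values were adjusted by Benjamini-Hochberg over all soybean probe sets, and calls needed an adjusted p of at most 0.05 and 2-fold. A group mean within background was set to the background level for a fold bound. On simulated data at stress R6, R7 and R8, changes of 1.5 log2 were recovered in 96%, 91% and 89% of cases, on 37593 probe sets each.

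Named members were those called between environments, those called for the interaction, the 4 largest called increases and decreases per family over maturation, and the member of highest mean signal per family. The members and gene lists were chosen with earlier results of these data known. The test of the stress difference at R7 against R6 was added after the data were seen. Alternatives were the study's signal filter, all probe sets, no trend, robust variance, further quantile normalization, centred medians, array weights, the replicate number as a block, no fold minimum, any single-gene probe set, other arrays in the fit each array left out and, chosen after the data were seen, group means within background set to the background level. The number of arrays limits the precision.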

Additional observations from a re-analysis of the deposited data

Results flagged for a closer look

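The stress difference changed between stages for 29 results, by tests of the interaction itself. For R8 against R6, with log2 values positive where the difference was higher at R8, these were WRKY6 (1.66), WRKY12 (2.45), WRKY43 (1.6), WRKY46 (2.12), WRKY48 (1.03), NAC6 (1.75), NAC018 (1.02), NAC12 (-3.25), NAC22 (-1.06) and NAC51 (-1.29). The calls that depended on 1 array are given with these genes in the report. In WRKY12, WRKY43, WRKY46 and NAC6, 3 of the 4 groups lay within background, and in NAC51 1 did, so these fitted values rest in part on signals not above background. The report gives them with such groups set to the background level.

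For R7 against R6, a comparison added after the data were seen, 19 members were called. The NAC members were NAC12 (-6.04), NAC26 (-3.52), NAC51 (-2.71), NAC14 (-1.78), NAC1 (-1.72) and NAC6 (1.62). NAC12 was -6.98 without the third stressed R6 array. The WRKY members called negative were WRKY33 (-2.37), WRKY23 (-1.94), WRKY53 (-1.76), WRKY34 (-1.69), WRKY4 (-1.67), WRKY36 (-1.61), WRKY51 (-1.1) and WRKY5 (-1.09). Those called positive were WRKY12 (2.57), WRKY46 (2.4), WRKY6 (2.08), WRKY43 (1.27) and WRKY56 (1.13). At R7 the stress differences of WRKY4, WRKY53, NAC1 and NAC14 were -0.58, -0.50, -0.07 and -0.08, not called, so their values rest on their higher level in stressed R6 seeds. With group means within background set to the background level, the values were 2.2 for WRKY12, 1.77 for WRKY46, 0.72 for WRKY43, 1.31 for NAC6, -2.1 for NAC51, -1.2 for WRKY34 and -0.63 for WRKY5, so that WRKY43 and WRKY5 fell under 2-fold.

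Of these, 3 passed by little. WRKY51 was lost without any one of 10 arrays, with values from -0.61 without the first non-stressed R7 array to -1.15 without the second stressed R6 array. It was also lost with all probe sets adjusted together (limma, adjusted p = 0.0603), with no trend (0.0573), with further quantile normalization (0.0818) and with centred medians (0.0769). WRKY5 was -0.69 without the second non-stressed R7 array, -0.99 without the first stressed R6 array and -1.0 without the second stressed R7 array, and -0.99 with centred medians. WRKY56 was 0.90 without the first non-stressed R6 array, 0.94 without the first non-stressed R7 array and 0.99 without the second stressed R7 array. The actin and 18S values of the R7 arrays, given in the report, differed between environments, and their part in these results was not tested. The same holds for the mixed maturation of R7 seeds that the study described.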

How the results depend on the processing

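Of 109 calls of single members in the stress, interaction and maturation comparisons (without the steps), 85 held under every processing setting and left-out array that tested them, and no value reversed its direction. Apart from these, with group means within background set to the background level, a setting chosen after the data were seen, at least 2-fold remained for 9 of 12 calls at R6, 8 of 9 at R7, 1 of 1 at R8, 8 of 10 for the R8 against R6 interaction, 23 of 24 over maturation in stressed seeds and 29 of 34 in non-stressed seeds. With no fold minimum, the calls numbered 26 of 67 members at R6, 16 at R7, 12 at R8, 20 for the R8 against R6 interaction and 37 over maturation in stressed seeds, against 12, 9, 1, 10 and 24 with it. The study's signal filter left 31 members to test at R6 and 7 calls, since WRKY43, WRKY46, WRKY54, NAC1 and NAC6 were filtered out before the fit.

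With each array left out in turn, the calls ranged from 11 to 14 at R6, 6 to 10 at R7, 1 to 3 at R8, 8 to 13 for the interaction, 23 to 26 over maturation in stressed seeds and 31 to 34 in non-stressed seeds. The R8 count of 3 came without the second non-stressed R8 array, and the R7 count of 6 without the second non-stressed R7 array. An arm left with 1 array is assumed to vary like the other groups.

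Same-numbered arrays of both environments share only a number. Their deviations from the group means correlated between -0.141 and 0.277. With the replicate number as a block, the calls were 12 at R6, 9 at R7, 2 at R8, where NAC26 was added, 10 for the interaction, 25 for maturation in stressed seeds and 34 in non-stressed seeds.

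Called differences against a group within background are given in the report as bounds, except in the plots of differences and for fitted values named as such. Non-stressed R7 and R8 seeds have 2 arrays each, which limits the comparisons that use them.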
